A study of Mus musculus with 23 samples.

Results

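The 10 genes described here encode the D cyclins (Ccnd1, Ccnd2 and Ccnd3) and the inhibitors of cyclin-dependent kinases (CDKs) of the INK4 family (Cdkn2a, Cdkn2b, Cdkn2c and Cdkn2d) and the CIP/KIP family (Cdkn1a, Cdkn1b and Cdkn1c). They were chosen by name, with earlier results of these data known. Every non-control probe whose transcript accession belongs to any of them was used. This gave 14 of the 55681 non-control probes of the array and 10 of its 20145 named genes. TM4 cells, an immortalized mouse Sertoli cell line, were treated for 48 hr with 100 μM of a plasticizer in 1% DMSO, or with 1% DMSO alone, and the RNA of each culture was read on a separate 1-colour array. The compounds were MEHP, the mono-ester metabolite of the phthalate DEHP; DINCH, a commercial diester of cyclohexane dicarboxylic acid; and the proposed plasticizers DOM (dioctyl maleate), DOS (dioctyl succinate) and BDB (a butanediol dibenzoate). There were 4 arrays per group and 3 for DOS. All groups share 1 cell line, 1 dose and 1 time, so neither a dose response nor a time course can be read from them.

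D cyclins are made when growth factors signal, and they bind CDK4 and CDK6 to start phosphorylation of the retinoblastoma protein, which releases E2F factors and opens the way into S phase. INK4 proteins bind CDK4 and CDK6 and keep D cyclins away, while CIP/KIP proteins act mainly on the complexes of CDK2 with cyclin E or A. In the testis, Sertoli cells divide before puberty and then leave the cell cycle, and p27, the product of Cdkn1b, and p19INK4d, the product of Cdkn2d, are among the inhibitors linked to that exit.

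Of the Sertoli cell markers, 7 of 15 were well above background on all 23 arrays, among them Gata4, Dhh and Inhbb. Wt1, Fshr and Cldn11 were above background on none, so the cells carried only part of the Sertoli profile. The summed level of the 15 markers, on the log2 scale used below, was 5.45 to 6.12 on the DOM arrays and 3.88 to 4.84 on the DMSO arrays, and its part in the results was not tested. Such sums were taken over unlogged levels and are weighted to the brightest marker. Here that was Inhbb, with a mean of 4.25 over the arrays, and the next was Dhh at 1.37. Of the Leydig markers Cyp11a1, Hsd3b1 and Lhcgr, and of the germ cell markers Ddx4, Dazl and Stra8, were above background on no array. The same held for Ptprc and Adgre1 of macrophages, Myh11 of smooth muscle and Cdh5 of endothelial cells. Other markers of these lists were above background on all arrays. These were Cyp17a1 (Leydig), Prm1 and Prm2 (germ cell), Csf1r (macrophage), Acta2, Cnn1 and Tagln (smooth muscle), and Pecam1 and Kdr (endothelial). Star of the Leydig list was above background on 12 arrays, and Sycp3 (germ cell) and Des (smooth muscle) on 4 each. The summed levels of the lists of other cell types overlapped between DOM and DMSO. Of the 3 slides that held the arrays, each carried several groups. DOM and DOS arrays sat in the same slide rows as DMSO, while MEHP, DINCH and BDB sat in the other rows, so that row and compound cannot be told apart for these 3 against DMSO or against DOM. At least 1 extraction measure was out of range on 8 of the 23 arrays.

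Levels are log2 of the processed signal relative to the 75th percentile of the same array, so a level of 1 is a signal 2-fold that percentile. They compare groups for 1 probe and do not compare genes. Where a gene had several probes, the brightest gives its value unless another is named. A gene was called when a probe differed at an adjusted p below 0.05 (limma, Benjamini-Hochberg over all tested probes) and by more than 1.5-fold. Of the members, 9 of 10 were measured on every array by at least 1 probe and were tested in every comparison. Cdkn1c, which encodes p57, was well above background on none of the 23 arrays and was not tested. The second probe of Cdkn1a, for another transcript of the gene, was above background on 2 arrays only (DMSO replicate 4 and DINCH replicate 3) and was not tested either. Both Cdkn2a probes carry the accession of the p19ARF transcript. The files do not say whether they also read the p16INK4a transcript of that gene, so the pair is not separated here.

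**Figure D1:**
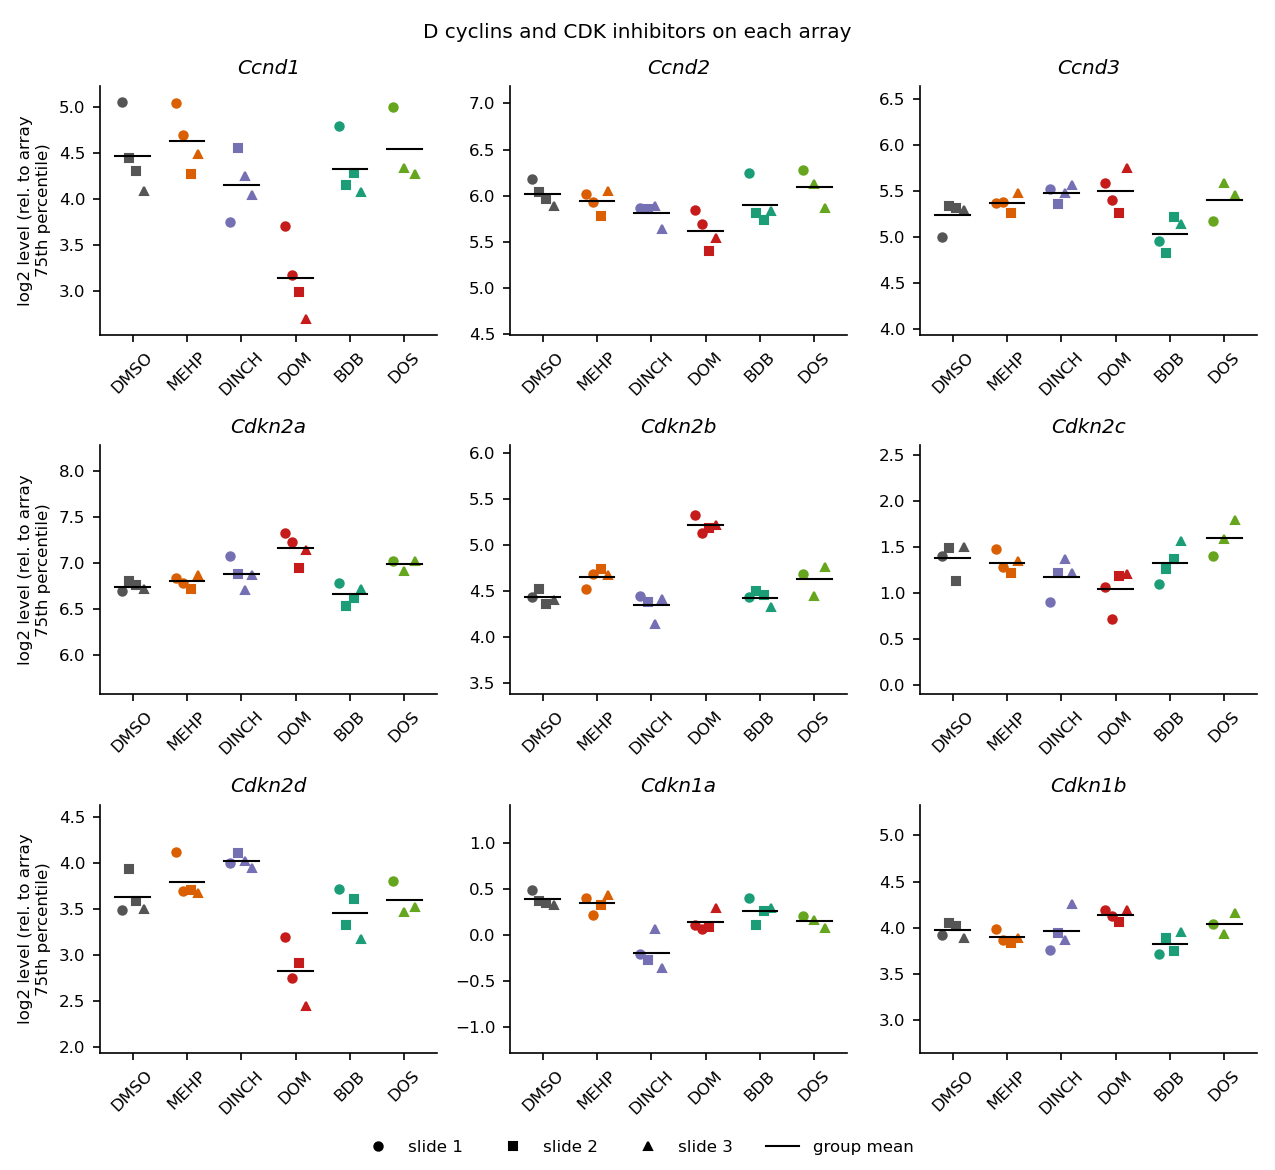
Level of each of the 9 measured members on every array, as log2 signal relative to the array's 75th percentile (brightest probe), by group, with symbols for the slide and a line for the group mean. All panels span the same number of log2 units, and the 4 DOM arrays lie below every DMSO array for Ccnd1 and Cdkn2d and above every DMSO array for Cdkn2b.

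DOM was the compound under which members were called against DMSO. Ccnd1 and Cdkn2d fell and Cdkn2b rose, which was 3 of the 9 tested members, while 20.5% of all tested named genes were called in the same comparison. By direction, 1 member was called higher where 9.9% of all genes were, and 2 were called lower where 10.6% were. MEHP, DINCH, BDB and DOS called 0 of the 9 members by limma, against 1.68%, 8.26%, 0% and 0% of all tested genes. At an unadjusted p under 0.05 on any probe, the number of members was 7 for DOM, where 50.9% of all tested genes passed, and 3 for DINCH, with 34.4%. It was 3 for DOS, with 7.73%, 1 for MEHP, with 21.6%, and 1 for BDB, with 19%. The BDB member (Ccnd3) and 1 of those for DOS (Cdkn2b) passed only at the second probe. The median log2 difference over the 9 members under DOM was −0.25, and over all tested genes it was −0.03. For the other compounds the members' medians lay between −0.12 and 0.08. The 5 comparisons share the DMSO arrays.

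**Figure D2:**
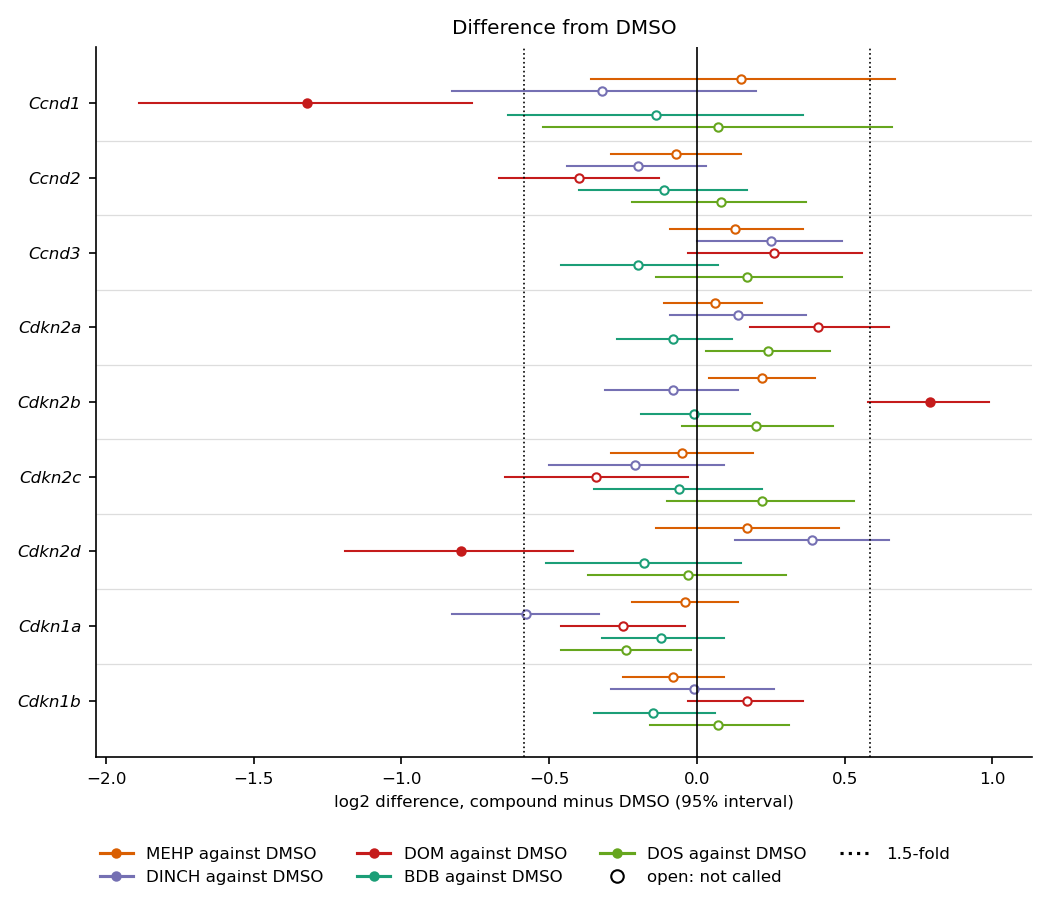
Log2 difference from DMSO of the 9 tested members under each compound, with 95% intervals (limma), filled where the gene's brightest probe was called and with dotted lines at 1.5-fold. The called points are Ccnd1 (−1.32), Cdkn2d (−0.80) and Cdkn2b (0.79) under DOM, and Cdkn1a under DINCH lies beside the 1.5-fold line.

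Among the D cyclins, Ccnd1 moved most. Cyclin D1 is the D cyclin most closely tied to growth factor signalling, and its RNA and protein are both short-lived. Its level on the 4 DMSO arrays was 5.05, 4.44, 4.30 and 4.08. On the 4 DOM arrays it was 3.70, 3.17, 2.99 and 2.70. The groups did not overlap, although replicate 1, on the first slide, was the highest array in both. The difference was −1.32 (SE 0.25, 95% interval −1.89 to −0.76, adjusted p = 0.00445), a 2.5-fold lower signal. Within the 3 slides it was −1.61, −1.38 and −1.38. By mean level the groups followed the order MEHP (4.62), DOS (4.53), DMSO (4.47), BDB (4.33), DINCH (4.15) and DOM (3.14). The ranges of neighbouring groups overlapped except for the last step, where the lowest DINCH array, at 3.75, lay just above the highest DOM array. That DINCH array, on the first slide, was among those with an extraction measure out of range. DINCH differed from DMSO by −1.30 on that slide and by 0.18 and 0.07 on the others.

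Ccnd2, the D cyclin best known from the gonads, where follicle-stimulating hormone induces it, was 6.18, 6.04, 5.96 and 5.89 with DMSO and 5.84, 5.69, 5.40 and 5.54 with DOM. Every DOM array was below every DMSO array, by −0.40 on average (SE 0.12, adjusted p = 0.0325). At 1.32-fold this did not reach the fold limit. Without a fold limit, an adjusted p below 0.05 took in 5 of the 9 members under DOM, where 38.7% of all genes passed. Ccnd3, which often stays on in differentiated cells, did not differ at the threshold. Its difference under DOM was 0.26 (95% interval −0.03 to 0.56), with 0.25 at its second probe, and its group means over all treatments ran from 5.04 under BDB to 5.50 under DOM. The 3 D cyclins thus had separate values under DOM, of −1.32, −0.40 and 0.26.

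Cdkn2b encodes p15INK4b, an inhibitor of CDK4 and CDK6 that transforming growth factor beta induces in many cells. Its level was 4.43, 4.52, 4.36 and 4.40 with DMSO and 5.32, 5.13, 5.18 and 5.22 with DOM. The replicates of each group lay close together and the groups were far apart. The difference was 0.79 (SE 0.09, 95% interval 0.58 to 0.99, adjusted p = 0.000496), or 1.72-fold higher. The second probe, to the same transcript, gave 0.90 (SE 0.12, adjusted p = 0.000769). Within the 3 slides the first probe differed by 0.80, 0.74 and 0.82, and on the deposited log2 values it differed by 0.80. The next groups by mean level were MEHP (4.65) and DOS (4.63), whose ranges overlapped. DMSO (4.43), BDB (4.42) and DINCH (4.35) followed, also with overlapping ranges. The difference of MEHP from DMSO was 0.22 (adjusted p = 0.21) and that of DOS was 0.20 (adjusted p = 0.794). At the second probe the difference was 0.02 for MEHP and 0.33 for DOS (95% interval 0.05 to 0.61, adjusted p = 0.624).

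Cdkn2a, the neighbouring protein-coding gene on chromosome 4, encodes p16INK4a and, from another first exon and reading frame, p19ARF, which stabilizes p53. The brighter probe read 6.69, 6.80, 6.76 and 6.71 with DMSO and 7.32, 7.22, 6.94 and 7.14 with DOM. Every DOM array lay above every DMSO array. The difference was 0.41 (SE 0.10, adjusted p = 0.0149), and the second probe gave 0.54 (SE 0.14, adjusted p = 0.0169). Both were under 1.5-fold, so Cdkn2a was not called. After quantile normalization the brighter probe differed by 0.67 (adjusted p = 0.000989) and was called. The gene was also called, through its second probe, without DOM replicate 3. Under DOS the brighter probe read 7.02, 6.91 and 7.02, above all DMSO arrays, with a difference of 0.24 (adjusted p = 0.652).

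The promoters of these neighbours are shown because both genes had higher values under DOM. The sequences are from RefSeq on GRCm38.p6, each 250 bases before a transcription start, on the minus strand, with matches to the motifs searched in capitals. The arrays measured RNA only, and the probes were designed on another build, so the windows carry no measurement of their own.
Cdkn2b, chr4:89311033-89311282: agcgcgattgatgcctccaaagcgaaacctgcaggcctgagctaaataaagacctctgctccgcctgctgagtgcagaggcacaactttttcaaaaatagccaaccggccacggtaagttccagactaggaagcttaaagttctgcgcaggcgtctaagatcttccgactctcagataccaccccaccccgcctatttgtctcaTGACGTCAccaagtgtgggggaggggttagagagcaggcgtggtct
Cdkn2a, start of the p19ARF transcript, chr4:89294620-89294869: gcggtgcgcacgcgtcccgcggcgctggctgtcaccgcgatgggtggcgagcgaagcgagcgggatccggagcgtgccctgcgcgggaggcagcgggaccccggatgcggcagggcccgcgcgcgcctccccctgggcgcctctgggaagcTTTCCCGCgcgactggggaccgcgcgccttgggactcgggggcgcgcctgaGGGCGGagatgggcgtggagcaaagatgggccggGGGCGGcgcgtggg

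Both strands were searched for an E2F motif (TTTGGCGC, TTTCCCGC, TTTGCCGC or TTTCGCGC), the GC box (GGGCGG), the E-box (CACGTG), the AP-1 motif (TGANTCA), the core of the antioxidant response element (TGACNNNGC) and the cAMP response element (TGACGTCA). The last was added after the Cdkn2b sequence had been read. The Cdkn2b window held the cAMP response element, starting 46 bases before the start, and no match to the others. Of 32851 RefSeq promoter windows of the same length, 1.55% held that motif. The p19ARF window held 1 E2F motif, found in 1.86% of all windows, and 2 GC boxes, found in 32.7%. It was 78.4% G and C, against 53.6% for Cdkn2b. The E-box was found in 6.02% of all windows, AP-1 in 6.75% and the antioxidant core in 10.2%, and these windows held none of the 3. The window before the other start of Cdkn2a (chr4:89282193-89282442), not shown, held 1 antioxidant core, starting 70 bases before that start, and no other match. Windows were at hand for 7 of the 10 members. A match describes letters and does not show that a factor was bound.

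Cdkn2d encodes p19INK4d, an inhibitor of the same kinases as p15INK4b whose amount normally rises and falls with the cell cycle. Under DOM it moved the opposite way to Cdkn2b. Its level was 3.49, 3.93, 3.58 and 3.50 with DMSO and 3.19, 2.75, 2.91 and 2.44 with DOM. The groups did not overlap. The difference was −0.80 (SE 0.17, 95% interval −1.19 to −0.42, adjusted p = 0.00726), or 1.75-fold lower. Within the 3 slides it was −0.52, −0.84 and −1.07. On the arrays with all extraction measures in range, 2 for DOM and 3 for DMSO, the difference was −0.70 and the call was lost (adjusted p = 0.0656). Ccnd1 and Cdkn2b were still called on those arrays.

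By mean level of Cdkn2d the groups were ordered DINCH (4.02), MEHP (3.79), DMSO (3.63), DOS (3.59), BDB (3.45) and DOM (2.82). Neighbouring groups overlapped, DOM with BDB only where the lowest BDB array (3.17) fell below the highest DOM array (3.19). DINCH lay at the other end from DOM. Its 4 arrays, from 3.94 to 4.10, were above every DMSO array, but the difference of 0.39 (SE 0.12) had an adjusted p of 0.0651. Cdkn2c, which encodes p18INK4c, had a mean level of 1.38 (SD 0.17, n = 4) with DMSO and 1.04 (SD 0.23, n = 4) with DOM. The difference of −0.34 (SE 0.14, adjusted p = 0.0934) did not pass, and the groups overlapped.

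Among the CIP/KIP genes, Cdkn1a had its lowest values under DINCH. It encodes p21, a target of p53 that also answers to many other signals. It read 0.49, 0.37, 0.35 and 0.33 with DMSO and −0.21, −0.27, 0.06 and −0.36 with DINCH. All 4 DINCH arrays were below all DMSO arrays, with replicate 3 the nearest to them. The difference was −0.58 (SE 0.11, 95% interval −0.83 to −0.33, adjusted p = 0.0143). At 1.496-fold it lay just under the fold limit, so the gene was not called. Without a fold limit, and with no block for the replicate number, it was the only member to pass under DINCH, where 14.9% of all genes did. It was called with the slide as a block (−0.60, adjusted p = 0.021) and when any of DMSO replicates 2, 3 or 4 or DINCH replicate 3 was left out (−0.59 to −0.67). These were 5 of 20 alternatives, and the rest did not call it. Over all 20 the difference ran from −0.67 to −0.46, with an adjusted p of up to 0.139. Within the slides the difference was −0.71, −0.63 and −0.48.

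Under DOM, Cdkn1a read 0.11, 0.06, 0.09 and 0.29, and under DOS 0.21, 0.16 and 0.07. Both sets lay below every DMSO array, by −0.25 (adjusted p = 0.0709) and −0.24 (adjusted p = 0.669), which did not pass. Cdkn1b, which encodes p27, differed little from DMSO under any compound. Its level was 3.89 to 4.05 with DMSO and 4.06 to 4.19 with DOM, a difference of 0.17 (95% interval −0.03 to 0.36). For the other compounds its differences lay between −0.15 and 0.07, and all its 95% intervals lay within 1.5-fold.

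BDB and DOS had no called gene on the whole array in these fits, although some alternatives called up to 120 genes for BDB and up to 8 for DOS, none of them a member. For the members, BDB had differences from −0.20 (Ccnd3) to −0.01 (Cdkn2b), and DOS had differences from −0.24 (Cdkn1a) to 0.24 (Cdkn2a). The intervals were widest for Ccnd1, at −0.64 to 0.36 for BDB and −0.52 to 0.66 for DOS. The replicate numbers paired these arrays with DMSO, and with the replicate block the Ccnd1 intervals narrowed to −0.35 to 0.07 for BDB and −0.20 to 0.31 for DOS, within 1.5-fold. For MEHP, whose numbers were not taken as pairs, the Ccnd1 interval was −0.36 to 0.67.

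DOM was compared directly with 3 compounds at the same dose and time, with p-values adjusted over all probes of the 3 comparisons together. DOM and DOS are both dioctyl esters, and they differ by the double bond in the core of the maleate, which is a single bond in the succinate. Their arrays also sat in the same slide rows. The summed level of the smooth muscle markers was 7.66 to 7.97 with DOS and 6.88 to 7.30 with DOM. That of the Sertoli markers was 4.21 to 5.28 and 5.45 to 6.12. For the Leydig list it was 3.82 to 3.91 and 3.05 to 3.59. For the endothelial list it was 4.32 to 4.42 and 3.50 to 4.29. The sums of the germ cell and macrophage lists overlapped. The part of these sums in the differences below was not tested. Each sum is weighted to the brightest marker of its list. These were Tagln for smooth muscle, Inhbb for Sertoli, Cyp17a1 for Leydig and Kdr for endothelial markers. Ccnd1 had a mean level of 4.53 (SD 0.40, n = 3) with DOS, where every array lay above all DOM arrays, and was lower with DOM by −1.39 (SE 0.26, 95% interval −1.98 to −0.80, adjusted p = 0.00526). Cdkn2d read 3.80, 3.46 and 3.52 with DOS and was also lower with DOM, by −0.77 (SE 0.18, 95% interval −1.19 to −0.35, adjusted p = 0.0148). These were 2 of 9 members called, with 15.9% of all genes called.

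Cdkn2b was higher with DOM than with DOS by 0.58 (95% interval 0.32 to 0.85, adjusted p = 0.00718), which at 1.499-fold was just short of a call. The replicate numbers paired the DOM and DOS arrays, and with the replicate block Cdkn2b was called (0.61, adjusted p = 0.0143). It was also called after quantile normalization (0.67), after normexp correction (0.63), on the deposited log2 values (0.59) and with the slide block. Cdkn2c (−0.56, adjusted p = 0.0291) and Ccnd2 (−0.48, adjusted p = 0.0421) were lower with DOM and under the fold limit. For Cdkn2a the interval was −0.10 to 0.44, for Cdkn1a −0.25 to 0.23, for Cdkn1b −0.14 to 0.33 and for Ccnd3 −0.26 to 0.45. These intervals lie within 1.5-fold and include 0. At the second probe of Cdkn2a the interval was −0.13 to 0.59, which passes 1.5-fold. Its brighter probe differed by 0.15 to 0.43 over the alternative settings, so a difference in Cdkn2a is not excluded. Without DOS replicate 1, Cdkn2d was lost (−0.67, adjusted p = 0.0514) and Cdkn2b and Cdkn2c were called. On the arrays with all measures in range, 2 against 2, Ccnd1 (−1.19, adjusted p = 0.0864) and Cdkn2d (−0.69, adjusted p = 0.125) were not called.

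**Figure D3:**
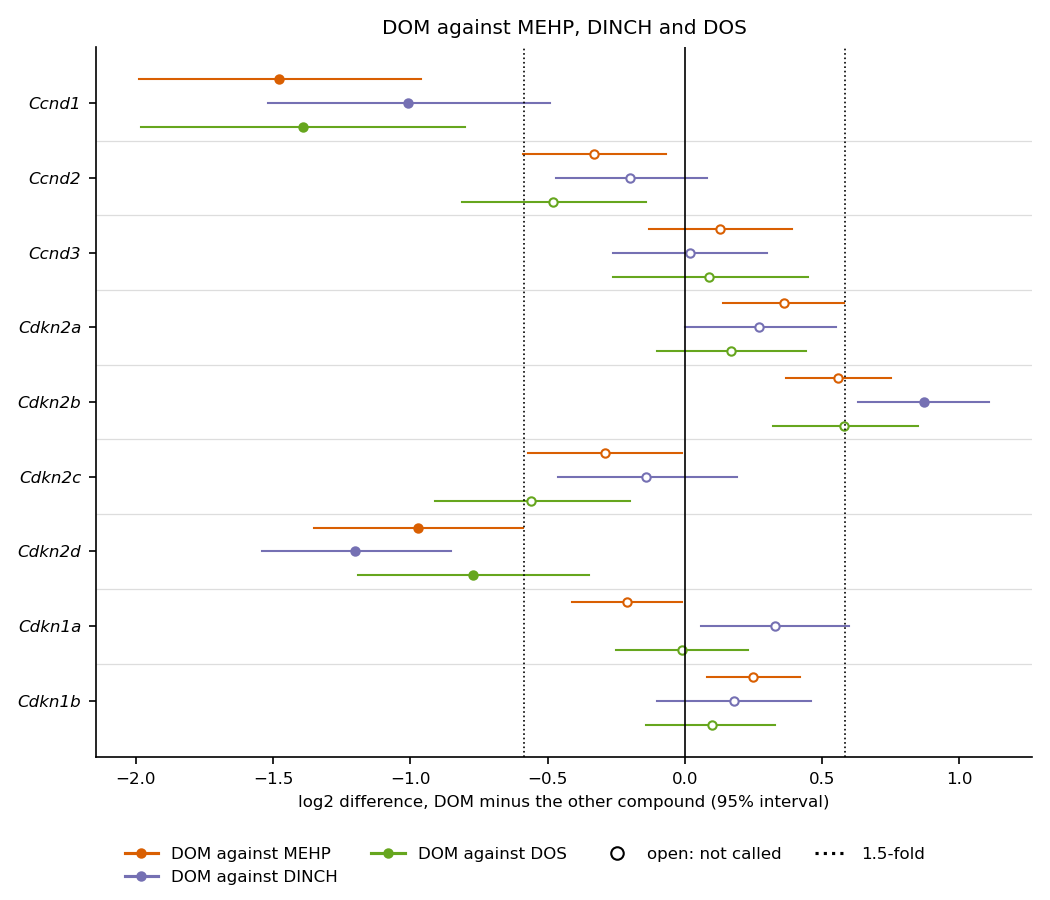
Log2 difference of DOM from MEHP, DINCH and DOS for the 9 tested members, with 95% intervals (limma), filled where the gene's brightest probe was called and with dotted lines at 1.5-fold. Ccnd1 and Cdkn2d are filled and negative in all 3 comparisons, and Cdkn2b is positive in all 3.

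Against MEHP, 3 of 9 members were called, with 19.3% of all genes. Ccnd1 was lower with DOM by −1.48 (adjusted p = 0.00188) and Cdkn2d by −0.97 (adjusted p = 0.00331). Cdkn2a (0.36, adjusted p = 0.0247) and Cdkn1b (0.25, adjusted p = 0.0379) were higher with DOM and under the fold limit. Cdkn2b was higher by 0.56 at its brighter probe (1.48-fold, adjusted p = 0.00154), and the call came from the second probe (0.88, SE 0.26, adjusted p = 0.0306). There, MEHP replicate 3 lay below all DMSO arrays and the other MEHP arrays read 2.14 to 2.35. The call of Cdkn2b was lost without DOM replicate 1 or DOM replicate 4, with no filter on dim probes, with detection on 1 array and with the brightest probe alone. On the arrays with all extraction measures in range, Cdkn2d was lost (−0.86, adjusted p = 0.063). Against DINCH, 3 of 9 were called, with 23.1% of all genes. Cdkn2d differed by −1.20 (SE 0.15, adjusted p = 0.000588) and Cdkn2b by 0.87 (adjusted p = 0.000507). Ccnd1 differed by −1.01 (adjusted p = 0.00987), but by −0.31 on the first slide against −1.56 and −1.45 on the others. With no filter on dim probes Ccnd1 was not called (adjusted p = 0.0672). On the arrays with all measures in range, Cdkn2b alone was called against DINCH.

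The genes around the members were taken from textbook lists, which were chosen with earlier results of these data known. Of the partner kinases, cyclins and pocket proteins, 10 of 11 were tested and 4 were called under DOM, all lower, where 10.6% of all tested genes were called lower and 20.5% in either direction. These were Ccna2 (−1.96), which encodes cyclin A2, Cdk1 (−1.90), the kinase of mitosis, Rbl1 (−0.99), a relative of the retinoblastoma gene, and Ccne1 (−0.80), which encodes cyclin E1. The direct partners of the D cyclins were not called, with Cdk4 at −0.12 (SE 0.13) and Cdk6 at 0.58 (SE 0.30), and neither was Rb1 at −0.14 (SE 0.11). Cdk4, Cdk6 and Rb1 are named as the targets of INK4 proteins and of the D cyclin kinases. Of the E2F and DP factors, 4 of 10 were called, all lower. E2f8 (−1.90) and E2f7 (−1.49), repressors that are themselves E2F targets, moved most, followed by E2f2 (−1.13) and E2f4 (−0.79).

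Of the proteins that set the turnover of inhibitors and D cyclins, 3 of 9 tested were called, against the 20.5% of all genes. Cks1b (−1.21), a helper of the ligase that destroys p27, and Dtl (−0.75), which directs the destruction of p21 in S phase, were lower. Gsk3b, a kinase that marks cyclin D1 for destruction, was called higher through another probe, while its brightest probe differed by 0.25 (adjusted p = 0.118). Of the regulators of transcription, 5 of 12 tested were called, 3 higher and 2 lower. Foxo1 (0.90), a factor held back by growth factor signalling, and Klf6 (0.70) were higher, and Klf4 (−1.13) and Ezh2 (−0.81), the methyltransferase of Polycomb repression, were lower.

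All 6 proliferation markers were called lower under DOM, where 10.6% of all tested genes were called lower. Ccnb1 (−2.12), which drives mitosis, Top2a (−1.90), a topoisomerase of dividing cells, Birc5 (−1.72) and Mki67 (−1.71) moved most. Every list had the same counts of higher and lower calls after quantile normalization, after normexp background correction and on the deposited log2 values. Under DINCH, 8.26% of all tested genes were called. Of the lists, 1 of 10 E2F and DP factors, 1 of 12 regulators and 1 of 6 proliferation markers were called, all lower. These were E2f4 (−0.70), Myc (−0.74) and Mcm2 (−0.77), named after their values were seen. Under MEHP, BDB and DOS no gene of these lists was called by limma. Of the reference genes, Hprt had −0.57 under DOM (adjusted p = 0.00947), under the fold limit, and Gapdh −0.18 (adjusted p = 0.228). In RNA from whole cultures, a change in the share of dividing cells and a change of RNA per cell cannot be told apart.

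**Figure D4:**
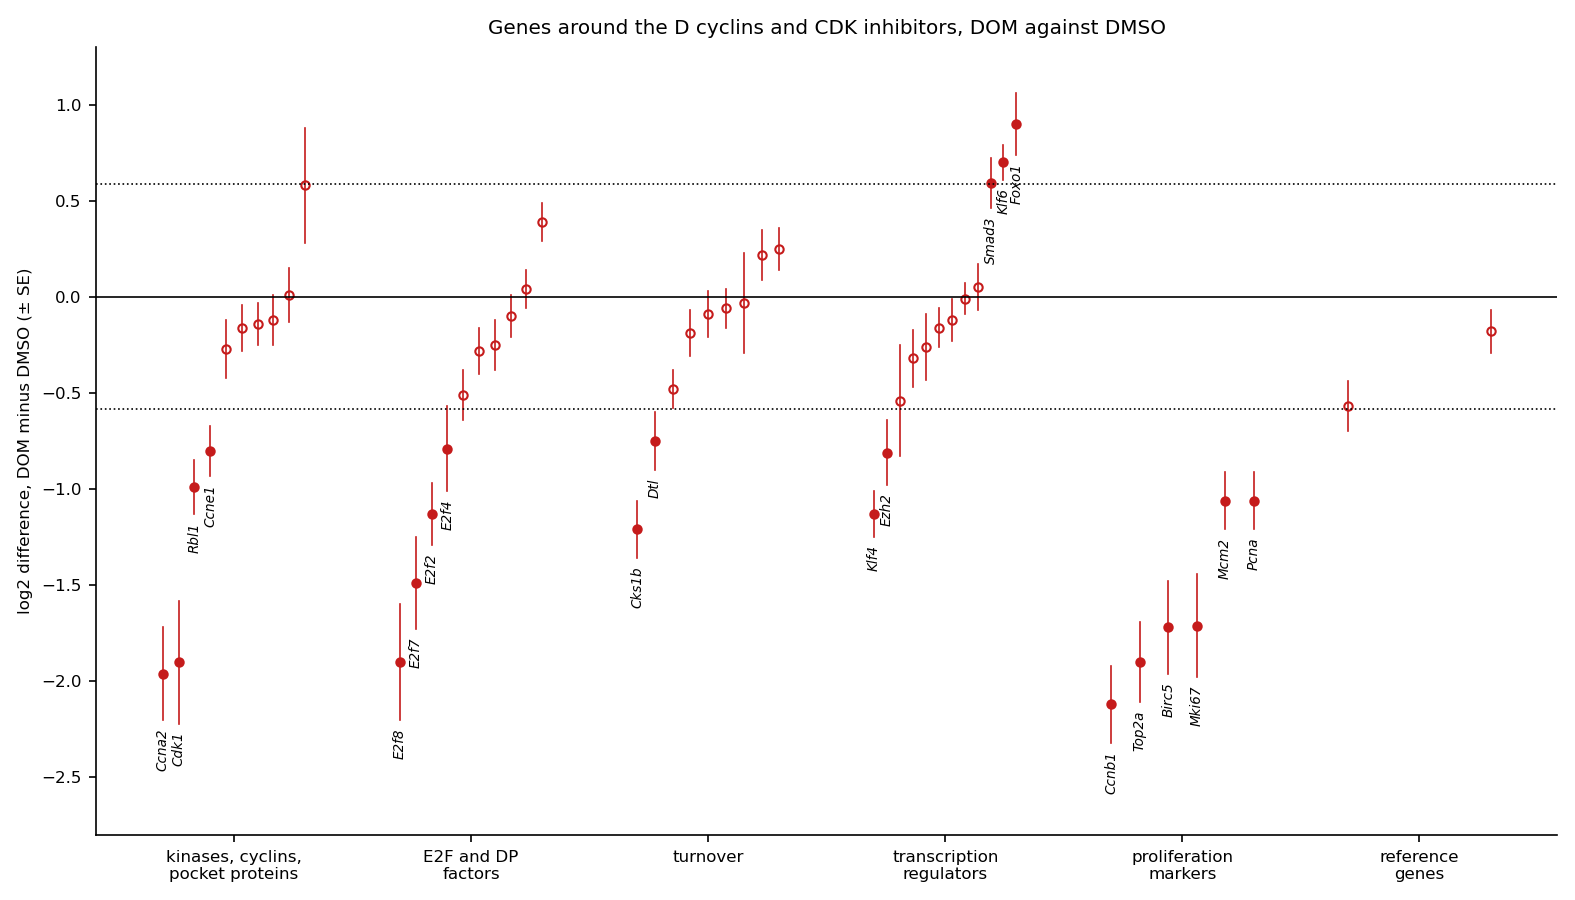
Log2 difference of DOM from DMSO (± SE, brightest probe) for the tested genes of each list, sorted within a list, filled and named where that probe was called and with dotted lines at 1.5-fold. All 6 proliferation markers lie below the lower line, while the transcription regulators have called genes on both sides.

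The genes whose levels followed the called members most closely were sought over the 23 arrays among 11157 genes measured on all of them. The DOM arrays stand apart for these members, so the correlations describe these arrays and were not tested. For Ccnd1 they were Fabp5, Tuba1c and Tagln2 (Pearson's r of 0.93 each), with 0.81, 0.78 and 0.86 over the 19 arrays without DOM. For Cdkn2d they were Selenoh (0.92), Ppih (0.92) and Ankrd29 (0.91), with 0.77, 0.77 and 0.74 without DOM. For Cdkn2b they were Evi2a (0.93), Trp53inp2 (0.92) and Hsd17b7 (0.91), with 0.70, 0.57 and 0.66 without DOM.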

How the data were processed

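Spot intensities were extracted by the authors with Feature Extraction 11.5.1.1, which subtracted background and removed spatial trends. The deposited intensities carry no scaling from array to array. A second deposited table holds log2 values that the authors shifted to the 75th percentile and centred on each probe's median, used here as an alternative (lowest correlation with the array's own intensities 0.9996). Their methods state 4 biological replicates per group and that 1 DOS replicate was left out for high background.

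Here, the 75th percentile of an array's non-control spots (204.6 to 350.7) was subtracted on the log2 scale, outlier spots (102 to 187 per array) were dropped and spots of a probe averaged. Between 43.4% and 52.2% of spots were well above background, and the number of arrays limits the precision. Probes were named through RefSeq accessions. Tested probes were well above background, and not under the 20th percentile, on all arrays of 1 or both groups. limma 3.58.1 in R 4.3.3 fitted each pair of groups alone, with Benjamini-Hochberg adjustment over tested probes, or over the 3 direct comparisons together. The steps were tested on simulated data: for DOM against DMSO, 70% of 200 probes changed by 1 log2 unit were recovered, with 6 false calls among 24348. The simulated noise was independent between arrays, and a smaller share was changed than the 20.5% of genes called for DOM. Recovery in the data may therefore differ. Figures used Python with matplotlib.

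The members, lists and tests were chosen with earlier results of these data known. Named from the lists were Hprt, Gapdh and up to 4 genes a list with the largest called change under DOM, and the 3 genes that correlated best with each called member. Others are marked or are direct partners of the members. Same-numbered replicates were taken as pairs where every pair's deviations from the group means correlated above 0.1: DINCH (0.17 to 0.50), BDB (0.25 to 0.43) and DOS (0.20 to 0.45) with DMSO, and DOM with MEHP (0.19 to 0.61) and with DOS (0.10 to 0.40). The alternatives were quantile normalization, normexp correction, all probes tested regardless of brightness, detection on a single array, a block for the slide or for the replicate number, a common fit of the 6 groups, no removal of outlier spots, the brightest probe only, a variance trend, the deposited log2 values, each array left out in turn and, added after seeing the files, the 15 arrays with all extraction measures in range.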

Additional observations from a re-analysis of the deposited data

Results flagged for a closer look

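In 45 sets of a group's arrays, 1 array stood apart from the others by Dixon's criterion in 2, where chance alone would give about 1 in 20. Cdkn2d on MEHP replicate 1 lay 0.43 log2 units above the mean of the other MEHP arrays, which read 3.67 to 3.70. Ccnd3 on DMSO replicate 1 differed by −0.31 from the mean of the other DMSO arrays, which read 5.29 to 5.34. In the direct tests between compounds, DOM differed from MEHP in Cdkn2b (0.88, second probe), Cdkn2d (−0.97) and Ccnd1 (−1.48). DOM differed from DINCH in Cdkn2b (0.87), Cdkn2d (−1.20) and Ccnd1 (−1.01), and from DOS in Cdkn2d (−0.77) and Ccnd1 (−1.39).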

How the results depend on the processing

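Under DOM against DMSO, Ccnd1 and Cdkn2b were called under every alternative run. Cdkn2d was lost only on the arrays with all extraction measures in range, and Cdkn2a was gained there, after quantile normalization and without DOM replicate 3. No called value changed direction under any alternative run. The number of members called for DINCH against DMSO was 1 with the slide block, and 0 to 1 when an array was left out. For DOM against DINCH it was 1 on the in-range arrays, and Ccnd1 was also lost with no filter on dim probes. For DOM against MEHP, Cdkn2d was lost on the in-range arrays and Cdkn2b under 5 alternatives. For DOM against DOS the number called was 1 with no filter on dim probes, where Ccnd1 remained, 0 on the in-range arrays, and 2 to 4 when an array was left out. Without DOM replicate 3 the 4 were Ccnd1, Cdkn2b, Cdkn2c and Cdkn2d, and without DOS replicate 4 they were Ccnd1, Ccnd2, Cdkn2b and Cdkn2d. Cdkn2b was added without DOM replicate 2 and Cdkn2c without DOM replicate 4. The cause was not tested, beyond the fewer arrays or more probes that these settings hold.

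With the replicate block, DOM against DOS called 3 members, Cdkn2b being added (0.61), and no other count of members changed. The same-numbered DOM and DMSO arrays correlated at 0.04 to 0.43 and were not taken as pairs, and the block left Ccnd1 at −1.32 there. The number of all genes called for MEHP against DMSO (201) fell to 3 with no filter on dim probes, 68 on the in-range arrays, 98 with detection on 1 array and 115 after normexp correction, and it was 88 without MEHP replicate 2 or 4, 97 without DMSO replicate 3 and 116 without MEHP replicate 1. That for DINCH (984) fell to 571 without DMSO replicate 3, 3 on the in-range arrays, 97 with no filter on dim probes, 594 after normexp correction and 609 with detection on 1 array. BDB, at 0, had up to 120 with all groups in 1 fit, and DOS, at 0, had 8 without DOS replicate 3 and on the in-range arrays. Scaling moved the median of all genes by at most 0.065.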
